A study of Mus musculus with 2 samples.

Results

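The results below concern 10 genes of mouse, the AP-1 subunits Fos, Fosb, Fosl1, Fosl2, Jun, Junb and Jund and the early response factors Atf3, Egr1 and Nr4a1, out of 19751 genes named on the array. They were matched by symbol in the platform's probe annotation. Each of the 10 was measured by 1 probe set of its own, and none shared a probe set with another gene. The study comprised 2 arrays of a single group, cultured fibroblastic reticular cells (FRCs) taken from lymph nodes of C57BL6/J mice that were untreated and 4 to 6 weeks old. Stroma of whole nodes was cultured over 7 to 10 days with 10% fetal calf serum, and total RNA was hybridised. The labels give no genotype other than the strain and no second condition. They do not tell from which animals or cultures the 2 replicates came, so the spread between the arrays may be technical in part, and with 1 group no comparison of conditions and no significance test was possible. The sources used here do not describe how the cells were purified.

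AP-1 is a transcription factor built from pairs of basic leucine zipper proteins. A JUN protein can pair with another JUN or with a FOS protein, whereas FOS proteins need a partner, and the pair binds a short palindromic site called the TPA response element. Growth factors, serum, cytokines and stress act on AP-1 through MAP kinases, which switch on FOS, EGR and NR4A genes within minutes without new protein synthesis, and the response is closed by phosphatases of the DUSP family and by unstable messages. In fibroblasts AP-1 is known for driving the response to serum, matrix-degrading enzymes and inflammatory cytokines.

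All 10 genes gave signal above 2 background limits on both arrays. Values are log2 of the deposited intensity. The background limit was the 95th percentile of 1035 olfactory receptor probe sets, 7.15 on replicate 1 and 7.17 on replicate 2. A stricter limit, from 35 probe sets of genes restricted to organs such as liver, retina and testis, was 8.08 and 8.18. All 10 members passed both limits on both arrays, against 67.3% of all named genes for the first and 49.8% for the second. Of the 34 organ-restricted genes themselves 15 passed the first limit on both arrays, so passing it alone does not show expression. The stricter limit was set from these same genes, so only a few could pass it, and 2 did on both arrays. One of these 2, Oxt, had 8.45 on each array, above the 8.31 of Fos on replicate 1. Because probes differ in how strongly they bind, the level of a gene was set only against these limits and against itself on the other array, and the 10 genes were not ordered by level. Likewise 2 arrays give no pattern across conditions, so no gene was named for a resemblance to a member.

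**Figure D1:**
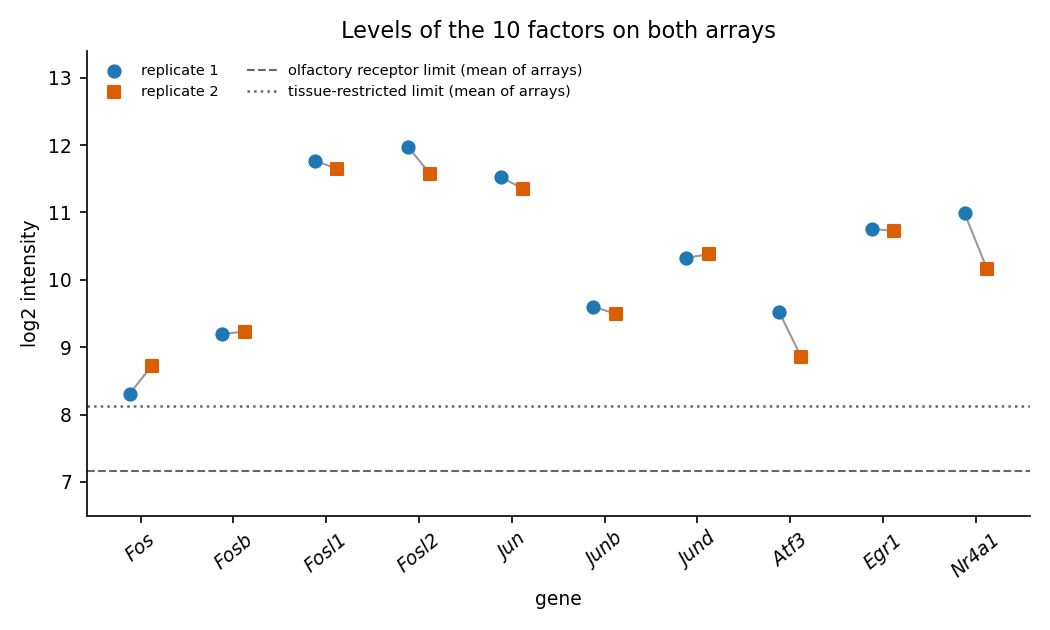
Log2 intensity (vertical axis) of the 10 factors (horizontal axis) on replicate 1 (circles) and replicate 2 (squares), with grey lines joining the arrays and horizontal lines at the mean of each background limit. Every point lies above both lines, and the steepest lines join the arrays for Nr4a1 and Atf3, while heights of different genes are not comparable.

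The labelled cell type was checked against marker genes. Of 9 FRC markers 7 passed both limits on both arrays, among them Pdpn, the podoplanin gene, at 12.60 and 12.73, and Fap and Bst1 passed neither. The leukocyte marker Ptprc stood at 6.41 and 6.47 and the epithelial marker Epcam at 6.65 and 6.64, below the first limit. Of 10 leukocyte markers 4 (Csf1r, Cd3e, Cd8a and Cd79b), of 8 endothelial markers 3 (Cdh5, Kdr and Emcn) and of 5 epithelial markers 2 (Krt14 and Krt18) lay above the first limit on both arrays, while 0 of these 23 genes lay above the second on both. The mean level of the whole list was 6.80 and 6.78 for leukocytes, 6.92 and 7.07 for endothelium, 7.02 and 7.01 for epithelium and 10.27 and 10.44 for FRC markers on replicates 1 and 2.

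The difference between the arrays is given as replicate 2 minus replicate 1 on the log2 scale and rests on 1 array per side. It was judged by a rule of 1.5-fold, over the 13577 named genes whose mean lay above the mean limit of 7.16. Of the 10 members 2 were at least 1.5-fold apart, Nr4a1 and Atf3, against 4.77% of all genes. Both were lower on replicate 2, against 1.91% of all genes, and 0 members were as much higher there, against 2.87%. At 2-fold the count was 0, against 1.41%. The median difference of the members was -0.11, with 7 of 10 lower on replicate 2, while over all genes the median was 0.0046 and 48.8% were lower. The members were chosen with earlier results of these data known, so these counts are no independent evidence. In RNA from a whole culture, fewer cells that express a gene and less RNA of it per cell cannot be told apart.

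**Figure D2:**
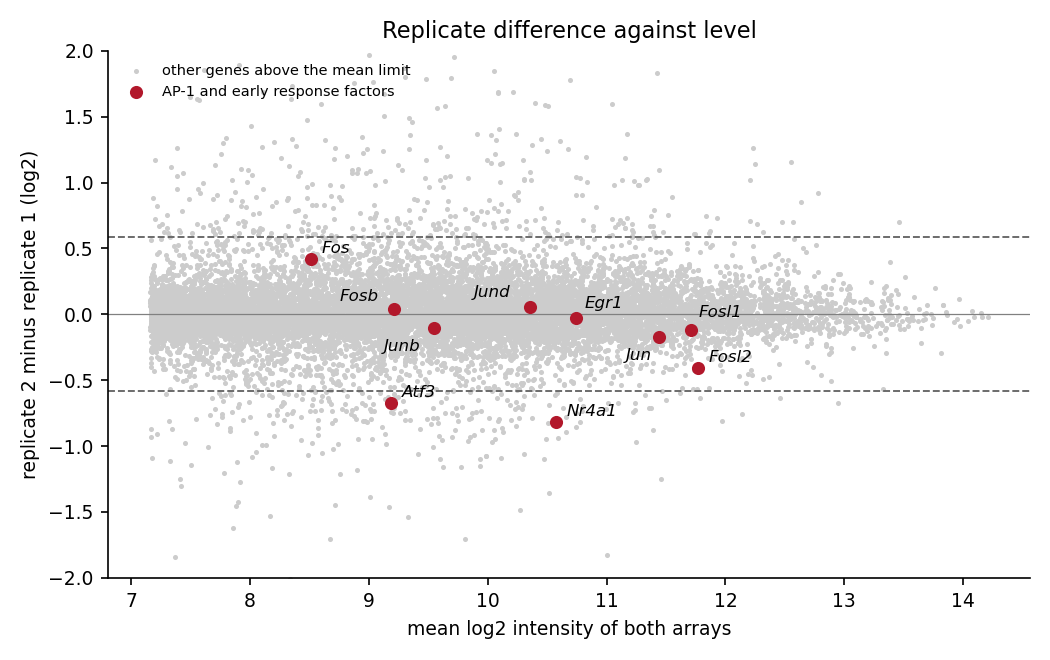
Difference between the arrays (vertical axis, replicate 2 minus replicate 1, log2) against the mean log2 intensity (horizontal axis) for the 13577 genes above the mean limit (grey; 27 genes beyond a difference of 2 lie outside the plot) and the 10 factors (red). Dashed lines mark a 1.5-fold difference; Nr4a1 and Atf3 lie below the lower line, and the other 8 factors lie between the lines.

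In the FOS family, which supplies AP-1 with both strong and weak activators, none of the 4 genes reached the 1.5-fold rule, and Fos (0.42) and Fosl2 (-0.41) had the widest differences. Fos (gene ID 14281, probe set 10397346), the classical serum-induced subunit, had 8.31 on replicate 1 and 8.73 on replicate 2, a mean of 8.52 ± 0.30 (SD, n = 2). Its value was 1.34-fold higher on replicate 2, which did not reach the 1.5-fold rule, and lay only 0.23 above the stricter limit on replicate 1. Among all genes 8.65% were at least as far apart, and 11.6% of the 2647 genes whose level lay within 0.5 of that of Fos.

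Fosb (gene ID 14282, probe set 10560481), which encodes a further inducible FOS protein and a shortened form known from chronic stimulation, had 9.19 and 9.23, with a mean of 9.21 ± 0.026 (SD, n = 2). It was 1.03-fold apart, and 81.3% of all genes differed by at least as much. Which of these forms its probes detect was not analysed here. Fosl1 (gene ID 14283, probe set 10460585) encodes FRA-1, a FOS protein without a strong activation domain that follows growth factor signalling with delay. It had 11.77 and 11.65, a mean of 11.71 ± 0.084 (SD, n = 2), and 46.9% of genes were at least as far apart. Fosl2 (gene ID 14284, probe set 10520862), the gene of the related FRA-2, had 11.98 and 11.57, a mean of 11.77 ± 0.29 (SD, n = 2). It was 1.33-fold lower on replicate 2, a distance reached by 9.09% of all genes and by 5.57% of the 1293 genes near its level. The median difference of the 4 FOS genes was -0.041.

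The JUN family, the partners that every AP-1 pair with a FOS protein needs, was close to equal on both arrays. Jun (gene ID 16476, probe set 10514466), the subunit activated by the JNK kinases, had 11.52 and 11.35, with a mean of 11.44 ± 0.12 (SD, n = 2), and 33.2% of genes were at least as far apart. Junb (gene ID 16477, probe set 10580282), which can restrain JUN and slow the cell cycle, had 9.60 and 9.50, a mean of 9.55 ± 0.073 (SD, n = 2). Jund (gene ID 16478, probe set 10572456), the subunit present in resting cells, had 10.33 and 10.38, a mean of 10.35 ± 0.039 (SD, n = 2). Jun and Junb were lower and Jund higher on replicate 2, by 1.12-fold, 1.07-fold and 1.04-fold, and the median difference was -0.10.

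Nr4a1 and Atf3 set the replicates apart, and Egr1 did not. Nr4a1 (gene ID 15370, probe set 10427035), an orphan nuclear receptor gene induced by many signals, had an intensity of 2029 on replicate 1 and 1149.6 on replicate 2, or 10.99 and 10.17 on the log2 scale, a mean of 10.58 ± 0.58 (SD, n = 2). It was 1.77-fold lower on replicate 2, with an SD 7.48 times the median SD of 0.078 over all genes. That distance was reached by 2.17% of all genes and by 2.09% of the 2492 genes near its level. Atf3 (gene ID 11910, probe set 10361091), a stress-induced basic leucine zipper factor that often represses, had 9.53 and 8.85, a mean of 9.19 ± 0.48 (SD, n = 2). It was 1.60-fold lower on replicate 2, and 3.48% of all genes and 4.96% of the 2764 genes near its level were at least as far apart. Egr1 (gene ID 13653, probe set 10454782), a zinc finger factor induced together with Fos by serum, had 10.76 and 10.73, a mean of 10.74 ± 0.022 (SD, n = 2), and 83.8% of genes differed by more or as much. Of these 3 factors Nr4a1 and Atf3 passed the 1.5-fold rule and Egr1 did not.

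Other values also differed between the arrays, and their part in the lower Nr4a1 and Atf3 of replicate 2 was not tested. The proliferation genes Mki67 and Top2a were 2.10-fold and 1.80-fold lower on replicate 2, and the cytokine gene Il1a stood at 10.27 on replicate 1 and at 5.74, below the limit, on replicate 2. Mki67, Top2a and Il1a were chosen after their values were seen. All 7 FRC markers above the limit were higher on replicate 2, by 0.10 to 0.42, while 48.8% of all genes were lower there. Of the 8 endothelial markers Emcn had 7.64 and 8.40 and Cdh5 8.05 and 7.53, Kdr was near equal, and Tek had 6.93, below the first limit, on replicate 1 and 7.68 on replicate 2. Pecam1 passed the first limit on replicate 1 only, and the lymphatic markers Prox1, Lyve1 and Mmrn1 on neither array. The 4 leukocyte markers above the first limit differed by -0.12 to 0.021, and Ptprc, Itgam, Cd4, Ms4a1 and Ncr1 lay below it on both arrays.

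The stretch of DNA in front of a gene can carry sites through which it is switched on. Such stretches are shown here for the members whose arrays differed most, with that of Jun for its own AP-1-like site. Whether any site in them has a part in the differences was not tested. RefSeq's promoter table of build GRCm38.p6 held 8 of the 10 genes, without Egr1 and Fosl1. The 250 bases before the annotated start are printed 5′ to 3′ on the strand of the gene. The windows are those of Nr4a1 (chr15:101266596-101266845, plus strand), Atf3 (chr1:191183334-191183583, minus strand), Fos (chr12:85473640-85473889, plus strand), Fosl2 (chr5:32136222-32136471, plus strand) and Jun (chr4:95052223-95052472, minus strand). Capitals mark the half-site TGACG of the cAMP response element, which appears as CGTCA where it lies on the opposite strand, the variant TGACNTCA of the full element, and the TATA box TATAAA.
Nr4a1: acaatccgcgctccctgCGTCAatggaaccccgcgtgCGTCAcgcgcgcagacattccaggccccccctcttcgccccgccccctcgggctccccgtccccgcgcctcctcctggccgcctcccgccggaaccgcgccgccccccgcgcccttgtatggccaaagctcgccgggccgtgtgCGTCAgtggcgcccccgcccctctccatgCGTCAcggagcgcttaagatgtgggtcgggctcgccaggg
Atf3: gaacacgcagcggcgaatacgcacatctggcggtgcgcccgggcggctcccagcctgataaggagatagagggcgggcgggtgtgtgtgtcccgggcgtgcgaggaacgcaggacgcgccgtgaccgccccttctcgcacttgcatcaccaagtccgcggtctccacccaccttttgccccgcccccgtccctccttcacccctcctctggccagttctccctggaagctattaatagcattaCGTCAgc
Fos: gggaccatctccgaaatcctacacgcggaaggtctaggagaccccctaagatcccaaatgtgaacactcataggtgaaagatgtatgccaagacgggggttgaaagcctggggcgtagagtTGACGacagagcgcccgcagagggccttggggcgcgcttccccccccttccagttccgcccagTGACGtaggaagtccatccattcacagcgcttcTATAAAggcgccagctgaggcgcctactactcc
Fosl2: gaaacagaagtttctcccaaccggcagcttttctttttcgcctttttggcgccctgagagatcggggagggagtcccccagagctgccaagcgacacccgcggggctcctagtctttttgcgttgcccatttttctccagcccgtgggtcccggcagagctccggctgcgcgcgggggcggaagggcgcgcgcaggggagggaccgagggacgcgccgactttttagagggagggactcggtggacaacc
Jun: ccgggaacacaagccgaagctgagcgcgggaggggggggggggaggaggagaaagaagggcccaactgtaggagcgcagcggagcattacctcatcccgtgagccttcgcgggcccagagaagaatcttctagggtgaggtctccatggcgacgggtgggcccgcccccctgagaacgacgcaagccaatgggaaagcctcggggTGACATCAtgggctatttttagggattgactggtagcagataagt

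The half-site and the variant TGACNTCA were added to the search after these windows were seen, so their counts are no independent evidence. Nr4a1 had 4 half-sites in this window, which begin 233, 213, 69 and 40 bases before the start, all on the strand opposite to the gene. Fos had 2, beginning 129 and 66 bases before the start, and a TATA box 33 bases before it. Atf3 had 1, whose last base lies 3 bases before the start. Fosb and Junb, not printed, had 1 each, and Fosl2, Jun and Jund had 0. So 5 of the 8 genes held the half-site, which was present in 17.8% of the 32851 windows of the table and in 19.8% of its 27025 genes. It is not particular to the members, since 16 of 29 other early response genes with a window, a list described below, held it too. In Jun the variant TGACATCA begins 45 bases before the start. TGACNTCA was present in 7.49% of all windows, and it takes in the full cAMP response element TGACGTCA, which also contains the half-site.

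The other motifs were searched on both strands of the same 250 bases. The TPA response element TGACTCA (4.46% of all windows), the element TGACGTCA (1.55%), the CArG box of serum response factor (1.47%), the EGR site GCGTGGGCG (0.54%) and the NR4A site AAAGGTCA (1.34%) had no match in any of the 8 windows. The TATA box, found in 12.4% of windows, matched in Fos alone. The looser EGR motif GCGNGGGCG (4.70% of windows), which takes in the EGR site, matched in Fosb, Fosl2 and Nr4a1. It also matched in 7 of the 29 other early response genes. The GC box GGGCGG (32.7%), which can overlap that motif, matched in 6 of 8, with 5 matches in Atf3, and in 26 of the 29 other early response genes. The looser EGR motif and the GC box were also added after the windows were seen. The windows were rich in G and C, with a median of 64.8% for the members against 52.4% for all windows. That of the other early response genes was 62.8%. The part of base composition in these counts was not tested. Matches to letters do not show that a factor binds, and sites farther upstream were outside the window.

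**Figure D3:**
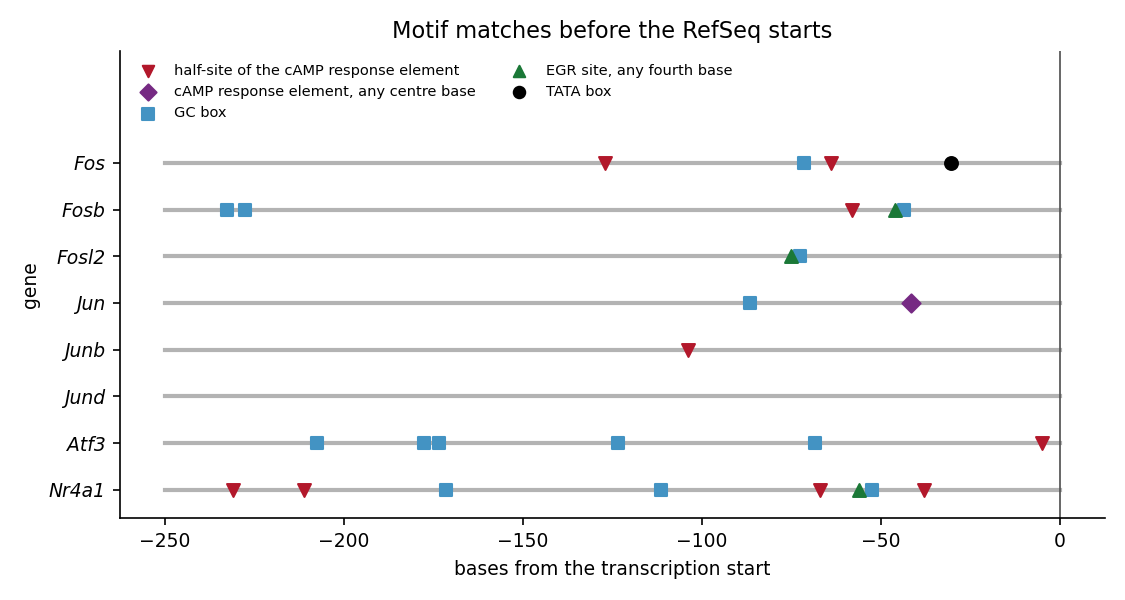
Matches of 5 motifs (symbols) in the 250 bases before the RefSeq start of 8 factors (vertical axis), placed by distance from the start in bases (horizontal axis). Nr4a1 has 4 half-sites of the cAMP response element, Fos 2 and a TATA box near the start, and Jund has no match. All motifs shown except the TATA box were added after the windows were seen.

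Relatives and partners of the members were next described from wider lists. These lists and those below were chosen with earlier results of these data known, so their counts are no independent evidence. All 5 other EGR and NR4A genes passed the first limit and 3 the second, against 67.3% and 49.8% of all genes. Nr4a2, a relative of Nr4a1, had 11.10 and 10.46 and was 1.56-fold lower on replicate 2, the same direction as Nr4a1. Nr4a3 had 7.77 and 7.49, below the stricter limit on both arrays, and Egr4, with 8.29 and 8.15, passed that limit on replicate 1 only. Egr2 and Egr3 were near equal on both arrays, with 10.92 and 10.84 for Egr2 and 9.13 and 9.15 for Egr3, as Egr1 was. Of 24 measured basic leucine zipper factors that can pair or compete with AP-1, such as the ATF, MAF, CEBP and BACH proteins, all 24 passed the first limit and 18 the second. None was 1.5-fold apart, against 4.77% of all genes, and their median difference was -0.037. The nearest was Maf, 9.60 and 10.18, which was 0.58 higher on replicate 2. The partners Batf, Batf2 and Batf3 passed only the first limit, with 7.61 and 7.56 for Batf.

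Other early response genes were lower on replicate 2 more often than not. All 41 genes of this list passed both limits on both arrays, against 67.3% of all genes for the first and 49.8% for the second. Of the 41 genes 31 were lower on replicate 2, against 48.8% of all genes, with a median difference of -0.15. The list was chosen with earlier results of these data known, so these counts are no independent evidence. At least 1.5-fold lower were 5 genes, against 1.91% of all genes, and 0 were as much higher, against 2.87%. They were Arc, a gene known from neuronal activity (1.84-fold, 10.39 and 9.51), the receptor tyrosine kinase feedback inhibitors Spry4 (1.74-fold) and Spry2 (1.63-fold), Csrnp1 (1.69-fold) and the antiproliferative gene Btg2 (1.52-fold). Genes of the same list that were near equal include Ccn1 and Ccn2, matricellular serum-response genes, at 13.69 and 13.66 and at 14.10 and 14.08. The highest value in the other direction was that of Klf4, a zinc finger factor, which was 0.40 higher on replicate 2.

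The phosphatases that end MAP kinase signals were mostly lower on replicate 2 as well, in a list also chosen with earlier results known. Of 12 DUSP genes all passed the first limit and 11 the second, Dusp2 being the exception. Among all genes 67.3% passed the first and 49.8% the second. Lower on replicate 2 were 10, against 48.8% of all genes, with a median difference of -0.28. At least 1.5-fold lower were 2, against 1.91% of all genes, and 0 were as much higher, against 2.87%. Dusp6, a cytoplasmic MAP kinase phosphatase, had 11.60 and 10.88 and was 1.65-fold lower, and Dusp5, a nuclear one, had 11.63 and 11.01 and was 1.53-fold lower. Dusp1, itself an early gene, was near equal at 12.83 and 12.84. Of 19 measured MAP kinase cascade genes 18 passed the first limit, all but the neuronal JNK gene Mapk10 (5.99 and 5.94). Lower on replicate 2 were 15 of the 18, against 48.8% of all genes, with a median of -0.098 over the 18. Again 2 were at least 1.5-fold lower, against 1.91% of all genes, and 0 as much higher, against 2.87%. Mapk13, the p38 delta gene, was 2.14-fold lower (11.02 and 9.93) and Rps6ka5, the gene of the kinase MSK1, 1.53-fold lower (8.10 and 7.48). Serum response factor and its cofactors, 7 genes, passed both limits, and none was 1.5-fold apart, against 4.77% of all genes. Srf had 11.37 and 11.05, and the median difference of the 7 was 0.061.

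**Figure D4:**
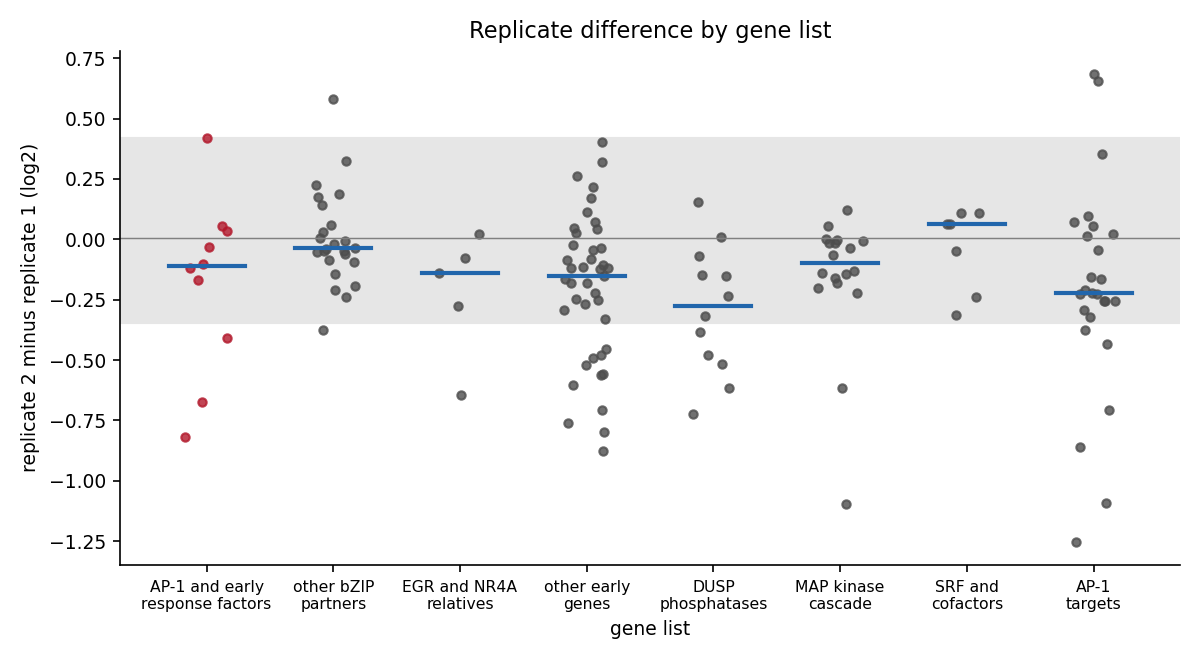
Difference between the arrays (vertical axis, replicate 2 minus replicate 1, log2) for each gene above the mean limit in 8 lists (horizontal axis), with blue bars at list medians and a grey band from the 5th to the 95th percentile of all genes (-0.34 to 0.42). The medians of the DUSP phosphatases (-0.28) and AP-1 targets (-0.22) are the lowest, and that of serum response factor and its cofactors is 0.061.

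Genes often described as AP-1 targets were mixed. Of 27 measured, 26 passed the first limit and 23 the second, against 67.3% and 49.8% of all genes. Mmp12 (6.61 and 6.84) lay below both limits. Mmp3 and Mmp9 passed only the first limit, and Mmp13 passed the second on replicate 2 only. Of the 26 genes 18 were lower on replicate 2, against 48.8% of all genes, with a median of -0.22. At least 1.5-fold lower were 4, against 1.91% of all genes, and 2 were as much higher, against 2.87%. The lower ones were the cytokine genes Il6 (12.08 and 10.83, 2.38-fold) and Lif (10.66 and 9.57, 2.13-fold), the endothelin gene Edn1 (10.55 and 9.69, 1.81-fold) and the urokinase gene Plau (11.71 and 11.00, 1.63-fold). The higher ones were the collagen gene Col1a2 (11.92 and 12.60, 1.61-fold) and the collagenase gene Mmp13 (7.76 and 8.41, 1.58-fold). The inhibitor gene Timp1 was near equal at 13.85 and 13.86. Target genes therefore lay on both sides.

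The promoter table held 20 of the 30 listed target genes, and 8 of the 20 had the TPA response element in the same window, against 5.16% of all genes. The list was drawn up from genes known for AP-1 sites, so this share is no independent evidence. The sites of the 7 that lay above the limit are shown, on the strand of the gene in GRCm38.p6, with the element in capitals (TGAGTCA where it lies on the opposite strand) and up to 10 bases on each side.
Mmp3: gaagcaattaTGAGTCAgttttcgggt
Mmp10: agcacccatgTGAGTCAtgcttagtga
Mmp13: cccaaagtggTGACTCAtcactatcat
Plaur: cccctggagcTGACTCActctttagca
Il6: cTGAGTCActtttaaaga
Mt2: aaagggggtgTGACTCAgcgcgggggg
Lif: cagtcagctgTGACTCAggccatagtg
Of these 7 genes 6 were lower on replicate 2, against 48.8% of all genes, with a median of -0.26. The median of the 10 target genes above the limit without the element in the window was -0.099. Mmp12, the remaining gene with the element, lay below the limit and was 0.23 higher on replicate 2. Whether the element has a part in these differences was not tested. Among the 7, Il6 and Lif differed most, by -1.25 and -1.09, and their elements begin 249 and 228 bases before the start. Mmp13, whose element begins 35 bases before the start, was the only one of the 7 that was higher, by 0.66. The differences were -0.26 for Plaur and for Mt2, -0.32 for Mmp3 and -0.22 for Mmp10, and Mmp3 had only 7.72 and 7.39, below the stricter limit.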

How the data were processed

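Expression was measured on 2 arrays of total RNA. The authors deposited linear intensities, 1 for each probe set of an array. Per the submitters' processing notes they come from RMA (robust multi-array average), with no version. RMA subtracts background, equalises the distributions of arrays and summarises probes, which compresses differences at low signal and hides a change in total RNA per cell. Which arrays were normalised together and the genome build are not given in the sources used here.

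From the deposited intensities log2 values were taken. Of 24679 probe sets, 21354 named 1 gene in the platform annotation, 1275 named several and 2050 none, and only the first kind was used. Gene IDs of 21277 were found in RefSeq's table for GRCm38.p6. Probe sets of a gene were averaged, giving 19751 genes. Differences were counted at 1.5-fold with no test, since each side is 1 array, and precision is limited by the number of arrays. The counting was tested on simulated data. Promoter windows of 250 bases were searched on both strands. The motifs TGACG, TGACNTCA, GCGNGGGCG and GGGCGG were added after the windows were seen.

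The members and lists were chosen with earlier results of these data known. Named are all 10 members, in each other list the genes at least 1.5-fold apart and those on the smaller side of the olfactory receptor limit where 5 or fewer. Further genes named in those lists, and Mki67, Top2a and Il1a, were chosen after their values were seen. The list of serum response factor cofactors held Mrtfa and Mrtfb under old and new symbols, counted once. Alternatives were other limits, other probe set rules, quantile normalisation, removal of a lowess trend (span 0.3), other level filters, 2-fold and each array alone. Work used Python 3.11.15, numpy 2.4.6, pandas 2.3.3 and statsmodels 0.14.6.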

Additional observations from a re-analysis of the deposited data

How the results depend on the processing

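The count of 10 members above the background limit was 10 under all 9 alternatives run. Those that could have lowered it were the 99th percentile, the tissue-restricted limit and quantile normalisation. The others could only give 10, because all 10 genes passed the main limit on both arrays. They were the 90th percentile, 1 array in place of both, each array alone, and the highest or lowest probe set. The count of members at least 1.5-fold apart was 2 after quantile normalisation and after lowess removal, and 0 at 2-fold. The median difference of the members, -0.11, was -0.13 after quantile normalisation and -0.12 after lowess removal, and that of the other early response genes, a result added after seeing the data, was -0.15 and then -0.16 under both. Each member had 1 probe set and a mean above both limits, so the probe set rules and level filters could not change these values. Of 40 alternative values of single member differences, 40 moved by less than the median SD of 0.078. Those under the probe set rules were fixed too, so only quantile normalisation and lowess removal could move a difference. Of 16 list counts, 5 changed by more than 1.5 times under the tissue-restricted limit, those of the EGR and NR4A relatives, the endothelial, leukocyte and epithelial markers and the tissue-restricted genes. No paired analysis was possible because the series has 1 group. Every difference rests on 1 array per side, so none has a replicate check, and signal near background, as for Fos on replicate 1, limits how far a difference can be read.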
